A study of Mus musculus with 24 samples.

Results

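The receptors described here answer the vasoactive amines, peptides and nucleosides that set the tone of the aortic wall. They are 4 adrenoceptors (Adra1a, Adra1b, Adra1d and Adra2a), the neuropeptide Y receptor Npy1r, the endothelin receptors Ednra and Ednrb, the vasopressin receptor Avpr1a and the adenosine receptor Adora2a. The 9 genes were taken by name from the probe rows of 1-colour Agilent mouse arrays, and the probe with the highest mean signal over all 24 arrays stood for each gene. Together they have 12 probes. The filter asked for a signal well above background in a complete group of 3 arrays, for any of the 8 groups, and kept 8 of the 9 genes among 23502 genes tested. Of the kept genes Adora2a was well above background on the fewest arrays, 12 of 24, which were the KO arrays, and Adra1a, the gene not kept, on 1 of 24. The genes were chosen by name with the signals of these arrays and their group differences in view, and the probe was selected on its mean signal, so their fold changes and adjusted p-values describe where each gene stood in a fit over all genes and are not independent support for any pattern.

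The study asked how high salt intake and IL-17 bear on aortic dissection. RNA came from the aorta of C57BL/6 mice on normal chow, and salt, where given, began before the infusion period. Mice were IL-17 knockout (KO) or wild type (WT), and the labels used here name IL-17 without saying which gene of the family was deleted. In each genotype, 1 group received BAPN, an inhibitor of the collagen and elastin cross-linking enzyme lysyl oxidase, with angiotensin II by continuous infusion for 3 days ("infusion"). Another received the same infusion while drinking 1% NaCl ("salt with infusion"). Of the others, 1 drank 1% NaCl and received vehicle ("salt"), and 1 drank plain water and received vehicle ("control"). The 8 groups had 3 arrays each. The sample entries name BAPN alone as the agent and the description of the design adds angiotensin II, so the 2 agents cannot be told apart. Ages are not given in the sources used here, and the extraction protocol speaks of cells where the sample entries say aorta.

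Adrenoceptors of the α1 class couple to Gq, which raises calcium in smooth muscle and contracts it, while the α2A adrenoceptor encoded by Adra2a couples to inhibitory Gi and also restrains noradrenaline release from sympathetic nerve endings. Ednra and Avpr1a are contractile Gq-coupled receptors of smooth muscle. Ednrb is best known in vessels for endothelial nitric oxide release and clearance of endothelin, Npy1r for Gi-coupled constriction by neuropeptide Y, and Adora2a for Gs-coupled dilation and for damping of inflammatory cells.

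Values are log2 of the processed signal minus log2 of the array's own 75th percentile, so 0 is the 75th percentile of the array and 1 unit is a doubling. Between 51.1% and 60.8% of spots per array were well above background, and the 75th percentile signal ran from 383 to 769 on KO arrays and from 269 to 459 on WT arrays. The slope of the spike-in controls ran from 0.932 to 0.981 on KO arrays and from 0.884 to 0.908 on WT arrays. The 4 slides held arrays of 1 genotype each, so genotype and slide cannot be told apart. The WT infusion arrays were all on slide 4 and the WT control arrays all on slide 3. The KO salt with infusion arrays were all on slide 2 and the KO salt and KO control arrays all on slide 1. Infusion differences in WT on plain water and in salt-drinking KO are therefore also differences between slides. The same holds for salt with infusion against control in KO. With slide as a random block, the estimated correlation within a slide was 0.485. Il17a and Il17f were well above background on 0 of 24 arrays, so they do not check the genotype. All 7 smooth muscle markers were well above background on arrays of every group, with Acta2 at 9.01 ± 0.20 in infused KO and 9.14 ± 0.23 in control KO aortas (SD, n = 3 each). So were all listed endothelial, pericyte, fibroblast and cardiac muscle markers, so detection of a list does not identify the tissue. The third infusion arrays of both genotypes stood apart. Over 23464 genes, after the genotype mean was subtracted, they correlated with the mean of their group's other 2 arrays at -0.12 in KO and -0.08 in WT, against 0.397 to 0.773 for the other 22 arrays.

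Adra2a was lower in every infused group and Ednrb was higher in every infused group. Avpr1a was lower in both infused groups that drank salt, and Adra1d was lower in both infused groups on plain water. The promoters of Adra2a, Avpr1a and Ednrb, from RefSeq on GRCm38.p6, are shown. No promoter window was matched for Adra1d. Each window covers 250 bases before the start site and 50 after it, read 5′ to 3′ on the gene's own strand. Adra2a lies at chr19:54045009-54045308 (plus strand), Avpr1a at chr10:122448249-122448548 (plus strand) and Ednrb at chr14:103843652-103843951 (minus strand). Capitals mark every match, on either strand, to the searched motifs: the E box CANNTG, the AP-1 site TGANTCA, the cyclic AMP response element TGACGTCA, the GC box GGGCGG, the TATA box TATAAA, the CArG box and the NF-kappaB site.
Adra2a: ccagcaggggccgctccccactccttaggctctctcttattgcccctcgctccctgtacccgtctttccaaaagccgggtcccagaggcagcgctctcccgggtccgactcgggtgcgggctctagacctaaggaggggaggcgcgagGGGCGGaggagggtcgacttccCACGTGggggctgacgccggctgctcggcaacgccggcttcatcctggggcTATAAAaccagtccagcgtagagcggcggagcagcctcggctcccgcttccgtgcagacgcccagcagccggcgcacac
Avpr1a: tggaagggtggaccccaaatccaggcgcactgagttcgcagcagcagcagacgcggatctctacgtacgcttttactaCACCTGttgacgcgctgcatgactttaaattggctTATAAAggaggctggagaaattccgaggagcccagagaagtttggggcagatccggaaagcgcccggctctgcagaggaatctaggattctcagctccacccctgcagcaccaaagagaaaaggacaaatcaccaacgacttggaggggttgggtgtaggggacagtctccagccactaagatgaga
Ednrb: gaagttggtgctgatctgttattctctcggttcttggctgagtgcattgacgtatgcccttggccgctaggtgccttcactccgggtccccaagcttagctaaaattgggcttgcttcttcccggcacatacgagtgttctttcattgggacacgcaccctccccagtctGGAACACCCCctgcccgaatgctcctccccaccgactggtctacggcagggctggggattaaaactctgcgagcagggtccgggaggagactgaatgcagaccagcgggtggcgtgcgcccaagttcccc
The Adra2a window held 1 GC box, 1 E box and 1 TATA box, the last beginning at position 222 of the window, and no match overlapped another. The Avpr1a window held 1 E box and 1 TATA box, and the Ednrb window held 1 NF-kappaB site and none of the other motifs. Among 32851 promoter windows of this length, 72.3% held an E box, 35.7% a GC box, 13.6% a TATA box, 8.46% an NF-kappaB site, 7.81% an AP-1 site, 1.79% a cyclic AMP response element and 1.63% a CArG box. The Adra2a window was 68.7% G and C with 28 CpG dinucleotides, the Ednrb window 58.7% with 15 and the Avpr1a window 54.0% with 13, against a median of 52.7% and 7 over all windows. Windows were matched for 6 of the 9 genes. A match is a description of these letters and not a binding site.

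Adra2a showed the widest change of the 8 genes under infusion. Its probe lies at chr19:54123363-54123422 on mm9. In KO aortas on plain water its log2 signal was -2.95, -0.21 and -2.62 with infusion, against 0.92, 0.90 and 1.1 in controls. All 3 infused arrays lay below all controls, but the second lay far closer to them than the other two. The mean difference was a 7.48-fold decrease (log2 change -2.90 ± 0.76 SE, adjusted p = 0.00804). In WT aortas on plain water the signal was -2.49, -3.07 and 0.53 with infusion, against 0.78, 1.25 and 0.80 in controls. Here the third array, one of the 2 that stood apart, lay just under the controls. The decrease was 6.13-fold (log2 change -2.62 ± 0.76 SE, adjusted p = 0.0175), and 13.2-fold without the third infusion array (adjusted p = 0.000346). The WT decrease did not pass without the first infusion array (log2 change -2.21, adjusted p = 0.0805), the second (-1.92, adjusted p = 0.125) or the second control (-2.46, adjusted p = 0.0584), and the KO decrease did not pass without the first KO infusion array (-2.39, adjusted p = 0.0565).

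The decrease of Adra2a was also present in salt-drinking mice. The salt with infusion arrays read -1.25, -2.20 and -3.46 in KO, against 1.12, -0.13 and 0.87 with salt alone, a 7.60-fold decrease (adjusted p = 0.00978). In WT they read -3.16, -3.75 and -2.99, against 0.84, 1.44 and 1.39 with salt alone, a 23.0-fold decrease (adjusted p = 0.000416). The groups did not overlap in either genotype. Without the third KO salt with infusion array the KO decrease did not pass (log2 change -2.34, adjusted p = 0.0602). The interval for the difference between the KO and WT decreases was wide: -2.55 to 1.97 log2 units on plain water and -0.66 to 3.86 under salt, with adjusted p = 0.977 and 0.723.

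Slides limit how firmly these decreases can be stated. On slide 1, which held KO controls and 2 KO infusion arrays, the decrease was 5.88-fold (adjusted p = 0.0298). On slide 3, which held WT salt and 2 WT salt with infusion arrays, it was 25.6-fold (adjusted p = 0.000437). With slide as a fixed block, the WT decrease on plain water was 8.47-fold with adjusted p = 0.286 and the KO decrease under salt 3.69-fold with adjusted p = 0.307, so neither passed. In both of these comparisons no infused array shared a slide with an uninfused one. Adra2a was called lower in all 4 infusion comparisons in the fit without slide.

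**Figure D1:**
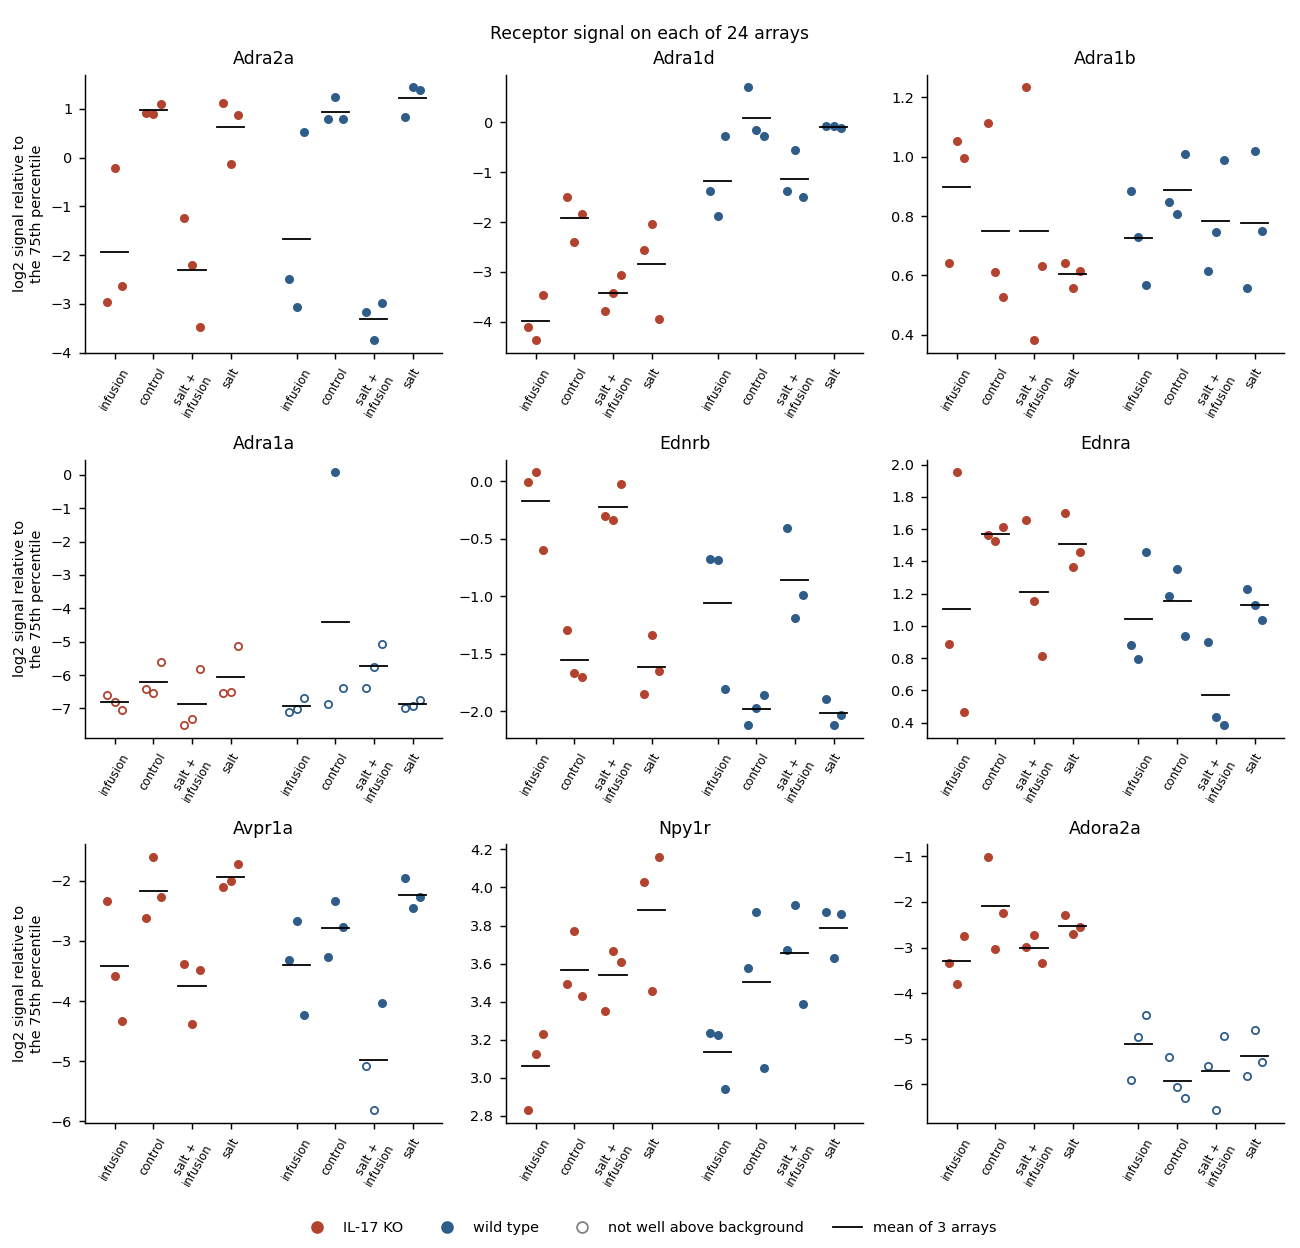
Log2 signal of the 9 receptors on each of 24 arrays (y axis, relative to the array's 75th percentile) by group (x axis). Points are arrays, KO in red left of WT in blue, open points are not well above background and lines are means of 3 arrays. Within each genotype and drinking water, infused Adra2a arrays lie below the uninfused ones and infused Ednrb arrays above them, and the open WT points of Adora2a lie below all KO points.

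Ednrb was higher under infusion in both genotypes, with or without salt. Its probe lies at chr14:104214484-104214543 on mm9 (minus strand). In KO aortas on plain water the infused arrays read -0.0039, 0.08 and -0.59, against -1.30, -1.67 and -1.70 in controls. In WT aortas on plain water they read -0.68, -0.68 and -1.81, against -2.12, -1.97 and -1.86. The KO groups were well apart, whereas the third WT array lay next to its controls. The increase was 2.61-fold in KO (log2 change 1.38 ± 0.26 SE, adjusted p = 0.00102) and 1.90-fold in WT (log2 change 0.93 ± 0.26 SE, adjusted p = 0.0156).

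Salt-drinking mice gave a like difference for Ednrb. The KO salt with infusion arrays read -0.30, -0.34 and -0.02, against -1.85, -1.34 and -1.65 with salt alone, a 2.62-fold increase (adjusted p = 0.0012). In WT they read -0.40, -1.19 and -0.98, against -1.89, -2.12 and -2.03, a 2.23-fold increase (adjusted p = 0.00344). No infused array overlapped its uninfused group in any of the 4 comparisons. Within slide 1 the KO increase was 3.02-fold (adjusted p = 0.000802), and within slide 3 the salt-drinking WT increase was 2.33-fold (adjusted p = 0.00795). The WT increase on plain water was 2.47-fold without the third infusion array. It did not pass with slide as a fixed block (2.17-fold, adjusted p = 0.239), without the first infusion array (log2 change 0.74, adjusted p = 0.0829), without the second (0.74, adjusted p = 0.101) or without the first control (0.86, adjusted p = 0.06). The second Ednrb probe, at chr14:104220870-104220929, moved the same way in all 4 comparisons, 2.41-fold in KO on plain water, 1.95-fold in KO under salt, 1.99-fold in WT on plain water and 1.87-fold in WT under salt. Fitted on its own it passed in the KO on plain water alone (adjusted p = 0.018), and the other 3 adjusted p-values ran from 0.0658 to 0.0777.

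Its partner Ednra, the contractile endothelin receptor, passed in none of the 16 comparisons of the fit. Under infusion on plain water it read 0.89, 1.95 and 0.47 in KO, against 1.56, 1.53 and 1.61 in controls, and 0.88, 0.80 and 1.46 in WT, against 1.18, 1.35 and 0.94. The infused arrays were spread to both sides of the controls. The 95% interval of the log2 change was -1.06 to 0.13 in KO and -0.71 to 0.48 in WT, so a KO decrease of about 1 log2 unit lies within the interval. Under salt with infusion the WT arrays read 0.90, 0.44 and 0.38, against 1.23, 1.13 and 1.04 with salt alone, and did not overlap (adjusted p = 0.137). Without the second KO infusion array, the KO decrease on plain water passed (log2 change -0.89, adjusted p = 0.0106). When the fit held the 2 compared groups alone, Ednra passed for infusion in salt-drinking WT (adjusted p = 0.0451) and for KO against WT in controls (adjusted p = 0.0446) and under salt (adjusted p = 0.0337). With normexp it passed for KO against WT under salt with infusion (adjusted p = 0.0356).

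Avpr1a, the V1a vasopressin receptor, was lower with infusion in mice that drank salt. Its probe lies at chr10:121890135-121890194 on mm9. The salt with infusion arrays read -3.38, -4.38 and -3.48 in KO, against -2.11, -2.0 and -1.72 with salt alone, and the groups did not overlap. In WT they read -5.08, -5.82 and -4.03, against -1.96, -2.46 and -2.28, and the first 2 of these were not well above background. The decrease was 3.49-fold in KO (adjusted p = 0.0129) and 6.72-fold in WT (adjusted p = 0.000663), the second resting on 1 of 3 infused arrays above background. Neither of the infused WT arrays on slide 3 was well above background, so no fold within that slide is given. With slide as a fixed block the KO decrease was 1.36-fold and did not pass (adjusted p = 0.663). It did not pass without the second KO salt with infusion array either (log2 change -1.49, adjusted p = 0.0581).

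On plain water Avpr1a did not pass. Infused KO arrays read -2.33, -3.59 and -4.32, against -2.62, -1.61 and -2.27 in controls (log2 change -1.25, 95% interval -2.28 to -0.21, adjusted p = 0.0624). Infused WT arrays read -3.33, -2.67 and -4.23, against -3.27, -2.33 and -2.77 (log2 change -0.62, 95% interval -1.65 to 0.42, adjusted p = 0.383). In both genotypes the groups overlapped. Without the first KO infusion array the KO decrease passed (log2 change -1.79, adjusted p = 0.0196). Between the infused groups, Avpr1a had a mean 1.26-fold lower in salt with infusion than in infusion alone in KO and 2.97-fold lower in WT. Neither passed over all genes (adjusted p = 0.9999 in KO and 0.802 in WT), and the difference between the infusion responses under salt and on plain water was not tested.

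Adra1d, the α1D adrenoceptor of conduit arteries, was lower with infusion on plain water. Its probe lies at chr2:131371198-131371257 on mm9 (minus strand). Infused KO arrays read -4.11, -4.37 and -3.47, against -1.50, -2.40 and -1.85 in controls, a 4.19-fold decrease (log2 change -2.07 ± 0.45 SE, adjusted p = 0.0024). Infused WT arrays read -1.37, -1.88 and -0.28, against 0.70, -0.17 and -0.28, a 2.40-fold decrease (log2 change -1.26 ± 0.45 SE, adjusted p = 0.0449). The KO groups were far apart, while the highest WT infused array and the lowest WT control both rounded to -0.28. Within slide 1 the KO decrease was 5.0-fold (adjusted p = 0.0122). The WT call was lost with the replicate block (adjusted p = 0.0612), with slide as a fixed block (1.66-fold) and without either of the first 2 control or infusion arrays (log2 change -1.39 to -0.91), and it was 3.28-fold without the third infusion array (adjusted p = 0.00763).

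Under salt the Adra1d decrease was smaller and did not pass. The salt with infusion arrays read -3.78, -3.41 and -3.06 in KO, against -2.55, -2.04 and -3.93 with salt alone (log2 change -0.58, 95% interval -1.52 to 0.36, adjusted p = 0.365). In WT they read -1.37, -0.56 and -1.50, against -0.07, -0.09 and -0.11, and the groups did not overlap (log2 change -1.06, 95% interval -2.0 to -0.12, adjusted p = 0.0755). The difference of Adra1d between responses on plain water and under salt was not tested.

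Adra1b, the α1B adrenoceptor, passed in none of the 16 comparisons by its brighter probe, at chr11:43589067-43589126 on mm9 (minus strand). Over all 24 arrays that probe stayed between 0.38 and 1.23. The log2 change with infusion was 0.15 in KO and -0.16 in WT on plain water, with 95% intervals of -0.27 to 0.56 and -0.57 to 0.25. The second probe, at chr11:43588147-43588206, stood apart by genotype. It read -2.0 to -0.97 over the 12 KO arrays and 0.76 to 2.60 over the 12 WT arrays, without overlap. Fitted on its own, with Benjamini-Hochberg adjustment over all kept probes, it was lower in KO by 13.2-fold in controls (adjusted p = 9.27e-08), 11.3-fold under salt, 9.46-fold under infusion and 5.45-fold under salt with infusion (adjusted p = 2.21e-05). It was also 2.20-fold lower with infusion in salt-drinking WT (adjusted p = 0.0118). For the brighter probe the KO and WT means in controls were 0.75 ± 0.32 and 0.89 ± 0.11 (SD, n = 3 each). The 2 probes carry the same gene name and disagree between genotypes, and genotype cannot be told apart from slide.

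**Figure D2:**
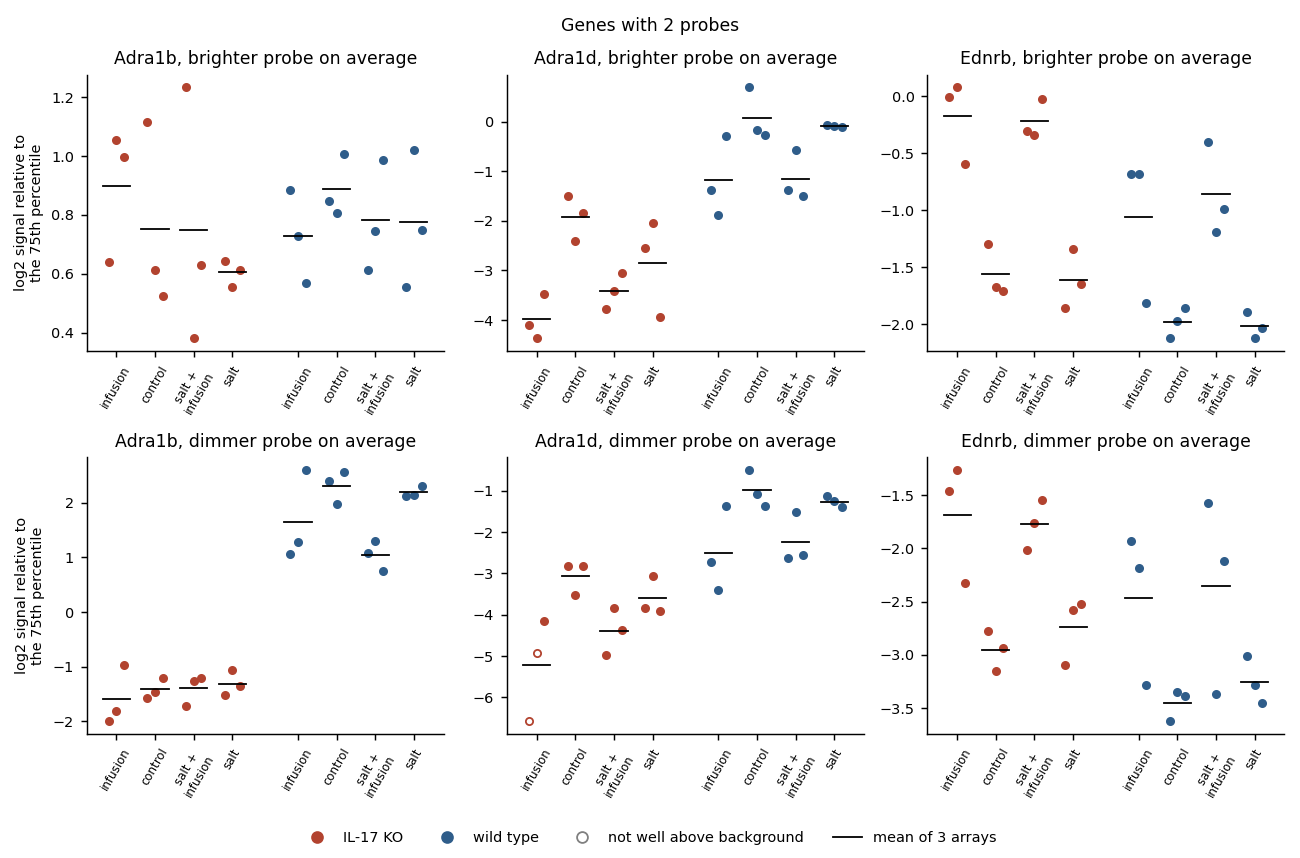
Log2 signal (y axis, relative to the array's 75th percentile) of both probes of Adra1b, Adra1d and Ednrb by group (x axis), brighter probe on average above and dimmer probe below. Points are arrays, KO in red left of WT in blue, open points are not well above background and lines are means of 3. The lower Adra1b probe reads below -0.9 in every KO array and above 0.7 in every WT array, while the upper one does not separate the genotypes.

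Adra1a, the α1A adrenoceptor, was well above background on a single array, the second WT control, which read 0.08. The other 23 arrays read -7.51 to -5.07. The other 2 WT controls read -6.87 and -6.40. Npy1r was detected well above background throughout, from 2.83 to 4.16. With infusion on plain water it read 2.83, 3.12 and 3.23 in KO, against 3.49, 3.77 and 3.43 in controls, without overlap (log2 change -0.50, 95% interval -0.94 to -0.07, adjusted p = 0.0721). In WT it read 3.24, 3.23 and 2.94, against 3.58, 3.87 and 3.05 (log2 change -0.37, 95% interval -0.80 to 0.07, adjusted p = 0.205). Npy1r did not pass in any of the 16 comparisons of the fit, and in the KO on plain water it passed with quantile normalisation (adjusted p = 0.0426) and with slide as a fixed block (adjusted p = 0.045).

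Adora2a, an adenosine receptor, was well above background on KO arrays only. Its probe lies at chr10:74797461-74797520 on mm9. That was all 12 KO arrays and 0 of 12 WT arrays. In controls the KO arrays read -1.02, -3.03 and -2.24, against -5.41, -6.06 and -6.30 in WT. Each WT array carries a bound alone, so folds were computed against that array's lowest signal well above background, or the Adora2a signal where this was higher. On that basis Adora2a was at least 5.19-fold higher in KO controls, at least 4.30-fold under salt, at least 2.98-fold under infusion and at least 2.86-fold under salt with infusion. The adjusted p-values of the fit ran from 7.21e-06 to 0.00487. Adora2a passed the filter through its KO groups alone, so they are not support for a genotype difference. With normexp background correction the fitted control difference was 1.69-fold (adjusted p = 0.0101). With that correction the other 3 differences did not pass (log2 difference 0.42 under salt, 0.15 under infusion and 0.03 under salt with infusion). The correction adds an offset of 50 to each intensity, which shrinks ratios of dim signals. These smaller values therefore cannot decide whether Adora2a differed. Infused KO arrays on plain water read -3.34, -3.80 and -2.74, and the infusion difference there did not pass (log2 change -1.20, adjusted p = 0.0658). With slide as a fixed block that decrease passed (log2 change -1.47, adjusted p = 0.027).

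Adra1d also stood apart by genotype, on both of its probes. It was lower in KO by 4.01-fold in controls, 6.73-fold under salt, 6.99-fold under infusion and 4.83-fold under salt with infusion, with adjusted p-values from 8.29e-05 to 0.00194. No KO array overlapped the WT arrays of the same treatment. The second probe, at chr2:131371721-131371780, was lower in KO by 4.21- to 6.58-fold. Ednrb was 1.85-fold higher in KO than in WT under infusion (adjusted p = 0.0108), with KO arrays at -0.59 and above against WT arrays at -0.68 and below. That difference did not pass without the third WT infusion array (log2 difference 0.51, adjusted p = 0.0887), without the second KO one (0.76, adjusted p = 0.0524) or on the second probe (adjusted p = 0.103). No other receptor of the 8 passed between genotypes. Under salt with infusion the KO and WT means differed by 1.23 log2 units for Avpr1a (adjusted p = 0.0689) and by 0.64 for Ednrb (adjusted p = 0.077).

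**Figure D3:**
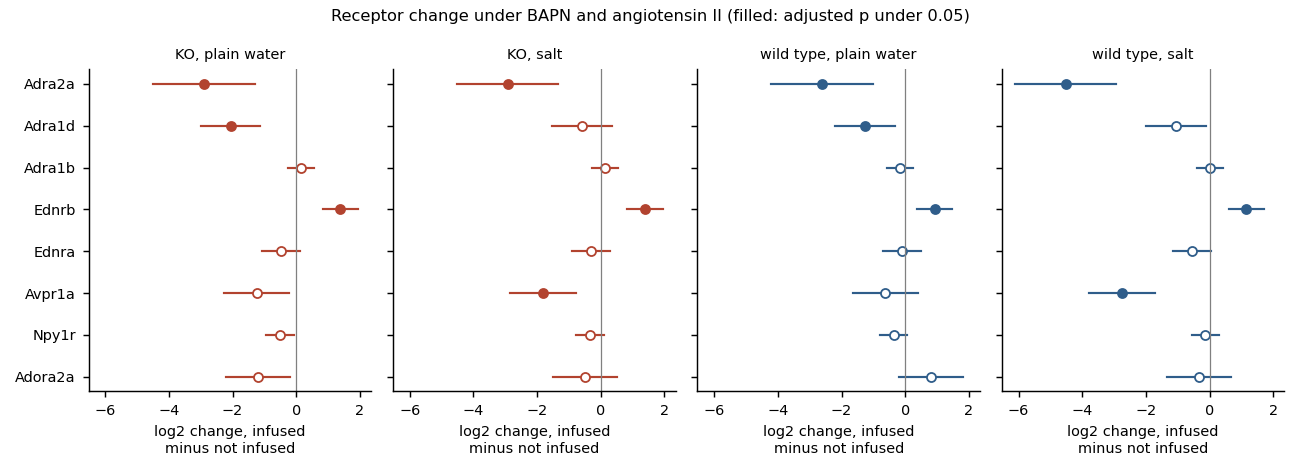
Log2 change of 8 receptors with infusion (x axis, infused minus uninfused) in KO and WT mice on plain water or salt, with 95% intervals from the fit. Filled points have an adjusted p under 0.05 and open points do not. Adra2a, from -4.52 to -2.62, lies left of 0 in all 4 panels and Ednrb, from 0.93 to 1.39, right of 0.

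The whole table moved under infusion, and the receptor counts are read beside it. In KO on plain water 1 of 8 receptors was called higher and 2 lower, where 14.4% of all genes were called higher and 16.2% lower. In WT on plain water the counts were again 1 higher and 2 lower, beside 12.1% and 13.7% of all genes. In KO under salt 1 was higher and 2 lower, beside 13.3% and 11.8%, and in WT under salt 1 higher and 2 lower, beside 16.3% and 16.6%. Salt with infusion against control, which shares its control arrays with the plain water comparisons, had 1 higher and 3 lower in each genotype, beside 12.7% higher and 12.8% lower in KO and 13.1% higher and 15.5% lower in WT. The 3 lower were Adra2a, Adra1d and Avpr1a in both. In KO no array of this comparison's 2 groups shared a slide, and fewer receptors passed there with slide as a block. The median log2 change of the 8 receptors was -0.85 in KO and -0.26 in WT on plain water, beside -0.04 and -0.02 over all genes. These shares rest on the choice of genes, and nothing about the receptors as a set is read from them.

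Between genotypes, 1 receptor was higher and 1 lower in KO in controls, beside 14.3% and 22.8% of all genes. The higher receptor was Adora2a, which is also counted as higher in each treatment that follows. It passed the filter through KO groups alone, so its place in these counts is not support for a genotype difference. Under salt the counts were 1 and 1 beside 15.7% and 23.5%, under infusion 2 and 1 beside 18.9% and 27.2%, and under salt with infusion 1 and 1 beside 10.6% and 17.9%. Salt alone called 0 of 23502 genes (0%) in either genotype in limma, and salt under infusion called 0 as well (0% in either). At an unadjusted p under 0.05, salt alone reached 0 of the 8 receptors in both genotypes, and salt under infusion reached 1 in KO (Npy1r) and 3 in WT (Avpr1a, Adra2a and Npy1r). Over all genes the share at that level was 3.03% in KO and 2.11% in WT for salt alone, and 4.53% in KO and 5.76% in WT for salt under infusion. The infusion response differed between genotypes for 0% of genes on plain water, with Adora2a alone of the receptors under an unadjusted p of 0.05, and for 0.0723% under salt, with none of the 8.

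Genes of like pattern were looked up by Pearson's r over the 24 arrays after each genotype's mean was subtracted, among 15894 genes with a RefSeq symbol. The arrays share treatments, so these r values are a description. Adra2a went most closely with Dnah7a (r = 0.964), St3gal6 (0.959) and Cyp4b1 (0.959), and Ednrb with Nxpe5 (0.962), Itgb2 (0.961) and Slc10a3 (0.960). Avpr1a went with Tgfbi (0.920), Mmp9 and Adssl1, Adra1d with Tfcp2 (0.927), Tnrc6b and Kcnh2, and Ednra with Art4 (0.902), Cmbl and Hvcn1. Adra1b went with 2900040C04Rik (0.939), Erich5 and Smarcc1, Npy1r with Akap9 (0.806), Sphkap and Hsf2, and Adora2a with 0610040B10Rik (0.680), Tmem253 and Zfp534. Among the receptors themselves, Adra2a and Ednrb ran in opposite directions (r = -0.866), Adra2a and Ednra together (0.771), and Adra1d against Ednrb (-0.771).

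**Figure D4:**
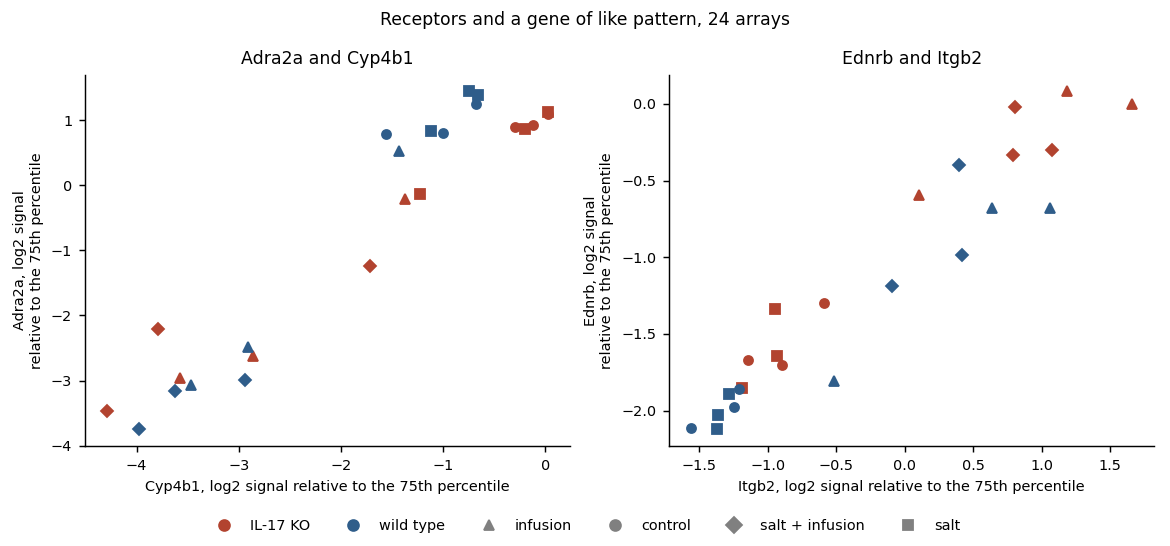
Log2 signal of Adra2a against Cyp4b1 and of Ednrb against Itgb2, a leukocyte integrin subunit, on 24 arrays (both axes relative to the array's 75th percentile). Colours give the genotype and symbols the treatment. Infused arrays lie at the lower left for Adra2a and, mostly, at the upper right for Ednrb, and in the first panel the third WT and the second KO infusion arrays lie near the uninfused ones.

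Markers of other cell types moved with these receptors, and in bulk tissue fewer cells of a type and less RNA per cell cannot be told apart. The marker counts here and below are read beside the share of all genes called. On plain water that was 14.4% higher and 16.2% lower in KO and 12.1% and 13.7% in WT. Under salt it was 13.3% and 11.8% in KO and 16.3% and 16.6% in WT. Of 7 macrophage markers, 5 in KO and 6 in WT were called higher with infusion on plain water, and 4 in KO and 5 in WT under salt. Their summed signal, in multiples of the 75th percentile, ran from 136 to 183 in infused KO against 113 to 125 in controls, and from 203 to 234 in infused WT against 151 to 200. Under salt it ran from 151 to 168 against 109 to 125 in KO and from 181 to 206 against 169 to 174 in WT. Cd68 was 3.98-fold higher in KO and 2.98-fold higher in WT on plain water. Neutrophil markers had 2 of 5 called higher in all 4 comparisons, among them Mpo, at least 1.65-fold higher in KO and at least 1.62-fold higher in WT on plain water. Mpo was well above background on no uninfused array and passed the filter through infused groups alone, so its calls are not support for a rise. The summed neutrophil signal overlapped between infused and uninfused arrays in all 4 comparisons. On plain water it ran from 69.5 to 119 in infused KO against 78.2 to 88.6 in controls. In infused WT it ran from 219 to 284 against 196 to 240. Under salt it ran from 203 to 238 against 212 to 250 in WT. In KO on plain water Csf3r was the brightest of the list and did not pass (log2 change -0.03), so the sum there mostly follows Csf3r. The called macrophage and neutrophil genes were higher where Ednrb was higher, but the neutrophil sum did not separate the arrays. The part of these genes in the Ednrb increase was not tested.

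Of 6 fibroblast markers, 3 in each genotype were called lower with infusion on plain water, and 5 in KO and 4 in WT under salt. Their summed signal ran from 412 to 528 in infused KO against 581 to 701 in controls, and from 307 to 416 in infused WT against 455 to 566. Under salt it ran from 315 to 404 against 586 to 694 in KO and from 261 to 352 against 530 to 580 in WT. Scara5 fell 3.86-fold in KO and 5.25-fold in WT on plain water. Dpt and Lum did not pass on plain water, with log2 changes of 0.20 and 0.29 in KO and -0.19 and 0.84 in WT. The part of these markers in the Adra2a decrease was not tested.

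Of the other marker lists, smooth muscle had 3 of 7 lower in KO and 1 of 7 in WT on plain water, and 2 and 0 under salt, with Myh11, Smtn and Lmod1 the 3 in KO. Pericyte markers had 1 of 4 lower in KO and 2 of 4 in WT, on plain water and under salt alike in number. Endothelial markers had 1 of 7 higher in KO and 2 in WT on plain water, and 0 and 3 under salt, with Emcn 2.25-fold higher in KO and 2.90-fold higher in WT on plain water. Their summed signal ran from 54.8 to 97.4 in infused KO against 78.8 to 85.7 in controls, and from 61.9 to 81.2 in infused WT against 55.1 to 63.8. Melanocytes also use Ednrb, and Mlana of that list was 8.78-fold lower in KO and 5.93-fold lower in WT with infusion on plain water, where 1 of 3 infused arrays in each genotype was well above background. The summed signal of that list ran from 0.170 to 0.235 in infused KO against 0.579 to 0.711 in controls, and from 0.154 to 0.291 in infused WT against 0.334 to 0.358. Of the sympathetic neuron markers, Dbh was never above background, and the noradrenaline transporter gene Slc6a2 was lower with infusion on plain water in both genotypes, with 1 of 3 infused arrays in each well above background. White adipocyte markers had 1 of 4 lower in KO and 0 of 4 in WT, with Lep never above background, and brown adipocyte markers 1 higher and 2 lower of 4 in KO and 1 higher in WT. The summed signal of the brown adipocyte markers ran from 30.2 to 38.8 in infused KO against 19.6 to 20.2 in controls, and from 14.4 to 22.4 in infused WT against 13.3 to 15.2. The marker called higher was Dio2 in both genotypes, 2.78-fold in KO, where it was the brightest of the list. In KO Cidea fell 2.66-fold and Ppargc1a 3.06-fold, and Ucp1 did not pass (3.65-fold lower, adjusted p = 0.233). The KO sum therefore follows Dio2 and does not describe the list. Lymphocyte, cardiac muscle and skeletal muscle markers had none called on plain water in either genotype.

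Genes around the receptors were taken from lists that were compiled with earlier results of these arrays known. Of 19 other amine and purine receptors, 3 rose and 1 fell in KO with infusion on plain water, and 4 rose and 3 fell in WT. Over all genes 14.4% rose and 16.2% fell in KO, and 12.1% rose and 13.7% fell in WT. These shares also stand beside the counts of the lists below. P2ry6, a UDP receptor of phagocytes, was 1.84-fold higher in KO and 1.56-fold higher in WT. Adora1, an adenosine receptor coupled to Gi, fell 2.27-fold in KO and 1.84-fold in WT. Adra2c, the α2C adrenoceptor, fell 4.69-fold in WT and did not pass in KO (2.93-fold lower, adjusted p = 0.0652). Adora2b rose 3.50-fold in KO and 3.30-fold in WT. Adora3 rose 6.26-fold in WT, where 1 of 3 controls was well above background, and did not pass in KO (2.43-fold higher, adjusted p = 0.128). Htr7, a serotonin receptor, rose at least 1.47-fold in KO and at least 2.46-fold in WT, against controls with no array well above background. Htr7 passed the filter through an infused group alone, so its place in these counts is not support for a rise. Of 20 other peptide and prostanoid receptors, 2 rose and 7 fell in KO, and 4 rose and 5 fell in WT. Ptger1, a prostaglandin E2 receptor, was 3.14-fold higher in KO and 2.20-fold higher in WT. Ptgfr, the prostaglandin F receptor, fell 3.25-fold in KO and 4.13-fold in WT. Ramp1, a partner of the calcitonin gene-related peptide receptor, fell 1.81-fold in KO and 1.94-fold in WT. Bdkrb1, the inducible bradykinin receptor, rose 3.58-fold in KO and 2.35-fold in WT, with 1 of 3 controls well above background in each. Agtr1b, an angiotensin II receptor, rose 3.29-fold in WT and did not pass in KO (1.11-fold higher, adjusted p = 0.730). Over all genes, the limma test of the difference between the KO and WT responses on plain water called 0, with 6.55% at an unadjusted p under 0.05.

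Of 17 ligand, enzyme and carrier genes, 2 rose and 3 fell in KO on plain water, beside 14.4% and 16.2% of all genes, and 2 rose and 7 fell in WT, beside 12.1% and 13.7%. Maob, which oxidises amines, fell 2.75-fold in KO (adjusted p = 4.1e-05) and 2.68-fold in WT (adjusted p = 7.3e-05). Entpd1, the ectoenzyme that degrades extracellular ATP, fell 2.22-fold in KO and 2.28-fold in WT, while Ada, which removes adenosine, rose 2.32-fold in KO and 2.52-fold in WT. Maoa fell 1.64-fold in WT and did not pass in KO (1.29-fold lower, adjusted p = 0.0628). Downstream of the receptors, 1 of 27 G protein signalling genes rose and 6 fell in KO, and 2 rose and 7 fell in WT. Itpr1, the inositol trisphosphate receptor, fell 2.55-fold in KO and 2.42-fold in WT, Prkcd fell 1.39-fold in KO and 1.35-fold in WT, and Plcb4 fell 1.64-fold in KO and 2.09-fold in WT. Grk5, a receptor kinase, rose 2.12-fold in KO and did not pass in WT (1.43-fold higher, adjusted p = 0.120). Of 12 RhoA and myosin phosphorylation genes, 1 rose and 4 fell in KO and 1 rose and 5 fell in WT. Rhoa rose 1.51-fold in KO and 1.30-fold in WT. Mylk, myosin light chain kinase, fell 2.67-fold in KO and did not pass in WT (1.43-fold lower, adjusted p = 0.247). Ppp1r14a, an inhibitor of myosin phosphatase, fell 2.29-fold in WT and did not pass in KO (1.47-fold lower, adjusted p = 0.195). The median log2 change of that list was -0.49 in KO and -0.52 in WT, beside -0.04 and -0.02 over all genes.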

How the data were processed

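RNA was measured on 24 1-colour Agilent arrays. Per the file headers, the deposited files hold processed signal intensity with background already subtracted and come from Feature Extraction 10.7.1.1, whereas the submitters' processing notes name 9.5.1.1. The authors' deposited value table is also an intensity-scale table, with a median of 31.0 in every column. Its normalisation is not given in the sources used here, and it served as an alternative.

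Intensities were averaged over the spots of a probe, after control spots and 2910 outlier spots were removed. The log2 of the array's 75th percentile was then subtracted from the log2 of that mean. The filter kept 33377 probes. Names came from RefSeq by accession for 27325 probes and by symbol for 3523, and 24833 kept the file's name. The brightest kept probe stood for each of 23502 genes, which were fitted with 1 mean per group over all 24 arrays in limma 3.58.1 (R 4.3.3), with moderated tests and Benjamini-Hochberg adjustment at 0.05. Tables and figures used Python 3.11.15 with pandas 2.3.3. The fit was tested on simulated data with independent noise and no slide effect, so that test cannot speak to differences between slides. The labels give 3 biological replicates per group, numbered within groups. WT salt titles and source names number them differently, and the source names were used. P-values measure the spread between these samples, and the number of arrays limits the precision. Same-numbered arrays did not deviate together throughout (correlations -0.449 to 0.453 between groups), so the numbers do not pair them.

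The receptors and the gene lists were chosen with earlier results of these data known. Genes named are all receptors, up to 4 genes of smallest p per list and genotype on plain water, and the 3 most alike per receptor. Some genes that this rule names are not reported here. Myh11, Smtn, Lmod1, Slc6a2 and Ucp1 were named to spell out small counts after their values were seen. Where no array of a group detected a gene above background, the value there is a bound, and the fold is given as "at least", against each array's detection limit or the gene's signal if higher. Alternatives changed the normalisation, background correction, filter, probe rule, blocks and samples.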

Additional observations from a re-analysis of the deposited data

How the results depend on the processing

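Over 277 recomputed counts of receptors called, 252 stayed within 1.5 times the reported count and 25 did not. With infusion in WT the count of 3 became 0 with slide as a fixed block, with slide as a random block and with only the compared groups. In KO it became 5 with normexp background correction, with slide as a fixed or random block, and without the third infusion arrays, an alternative added after seeing the data. Under salt it became 5 in WT with only the compared groups and 1 in KO with slide as a fixed or random block. Salt with infusion against control in KO became 2 with slide as either block. Between genotypes it became 1 in controls, under salt and under salt with infusion, with the filter that asked for detection on every array and with slide as a random block, and under salt also with normexp. Leaving out 1 array at a time gave 0 to 4 for infusion in WT, 3 to 5 in KO, 3 to 4 in salt-drinking WT and 2 to 3 in salt-drinking KO. It gave 3 to 4 for salt with infusion against control in WT and 2 to 4 in KO, 2 to 3 between genotypes, and 0 for salt and for the differences between responses. Averaging a gene's probes turned Adra1b to -0.57 for infusion in salt-drinking WT and to -1.54 for KO against WT under infusion, where its second probe enters the mean. The replicate block gave 2, 3, 3 and 3 receptors for infusion in WT, in KO, in salt-drinking WT and in salt-drinking KO, and 3 in WT and 4 in KO for salt with infusion against control. Only Adra1d in WT lost its call with that block, for infusion (adjusted p = 0.0612) and for salt with infusion against control (adjusted p = 0.0616). Signal over background limits Avpr1a in WT under salt with infusion, Adra1a, and Adora2a in WT. With normexp the median log2 change of all genes was -0.134 for salt with infusion against control in KO and -0.124 for infusion in salt-drinking KO, against -0.018 and -0.021 as reported.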
